A study of Sus scrofa with 2 samples.

Results

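Cadherins are membrane proteins that hold cells together through calcium-dependent contacts between their extracellular repeats. The genes described here were taken from a table of read counts per gene for pig brain and liver. A row belonged to the set if its product contained the word cadherin or if its gene name was a numbered CDH or PCDH name, and names beginning with CDHR were left out. Rows of the same name were summed, which gave 80 genes from 82 rows, of 21653 gene names in all. The set held 71 cadherins and protocadherins, and 7 catenins and catenin relatives whose product contains the words cadherin-associated protein. It also held 2 cadherin-related family rows that carry a gene number in place of a CDHR name.

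The samples were brain and liver of pigs (Sus scrofa) of the Rongchang breed, which comes from China, with 1 library per tissue. Per the labels, both tissues were frozen in liquid nitrogen, total RNA was extracted, and libraries were made by Illumina's standard protocol. The labels give no age, sex, brain region or number of animals, and no treatment or genotype. With 1 library per tissue there is no replicate check and no test, so each difference below describes these libraries.

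In the classical cadherins, the intracellular tail binds beta-catenin and p120-catenin, and alpha-catenin links this complex to actin. Type I cadherins such as E-cadherin and N-cadherin form strong adherens junctions, and type II cadherins mark sets of neurons and mesenchymal cells. Protocadherins lack the catenin-binding tail. The clustered protocadherins lie in tandem arrays and give neurons a surface identity, while the non-clustered ones act in axon growth and synapse formation. In liver, E-cadherin and N-cadherin join hepatocytes to one another.

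Counts summed to 23796843 in brain and to 31724498 in liver. Levels are given as scaled CPM, counts per 1000000 after TMM scaling, a correction for the different composition of libraries. They are not corrected for transcript length, so levels of different genes are not compared with each other. Shares of counts given below are likewise uncorrected, and serve to compare brain with liver rather than to rank genes or classes. The log2 ratio is brain over liver of scaled CPM with 1 added to each. A gene was called in brain if its log2 ratio was 2 or above and in liver if it was -2 or below, which is 4-fold, provided that it reached 1 CPM in either library. Folds are ratios of scaled CPM without the added 1, and their 95% intervals are exact conditional binomial intervals that cover counting error only. Where liver had 0 counts, a floor of 3 counts was used and the fold is a lower bound. Plain library size in place of TMM moved the median log2 ratio of all genes tested to 0.98, against 0.02 with TMM, and leaving the 50 most abundant genes of each library out of the totals moved it to 0.47. The fixed tissue markers went with the labels. The neuronal gene SNAP25 was at 425 CPM in brain and 0.232 CPM in liver, while the hepatocyte gene CPS1 was at 1.402 CPM in brain and 4795 CPM in liver. The sample titles give both libraries the same lane and barcode. ALB, the albumin gene, had 1563 counts in brain and 5966654 in liver, a share of 0.0262%, at which the liver counts of CDH1 would put 2.54 counts into the brain library.

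Of the 80 genes, 67 reached 1 CPM in either library and 13 did not. In all, 29 were called in brain and 3 in liver, CDH1, CDH17 and CTNNAL1. Among all 15706 genes tested, 14.6% were called in brain and 11.3% in liver. The log2 ratio was above 0 for 70 of the 80 genes and below 0 for 10, with a median of 1.36, against 0.04 over all names in the table. The sign depended on the scaling for 3 of them, CDH24, CTNNB1 and FAT4, which were below 0 with TMM and above 0 with plain library size. The added 1 CPM holds back genes with low counts. Without it, 48 of the 67 passed 4-fold toward brain and 5 toward liver, against 21.3% and 15.4% of all genes tested. Summed over the 71 cadherins and protocadherins, there were 47440 counts in brain and 16370 in liver, equal to 1357 and 758 CPM, a 1.79-fold difference (95% interval 1.76 to 1.82).

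**Figure D1:**
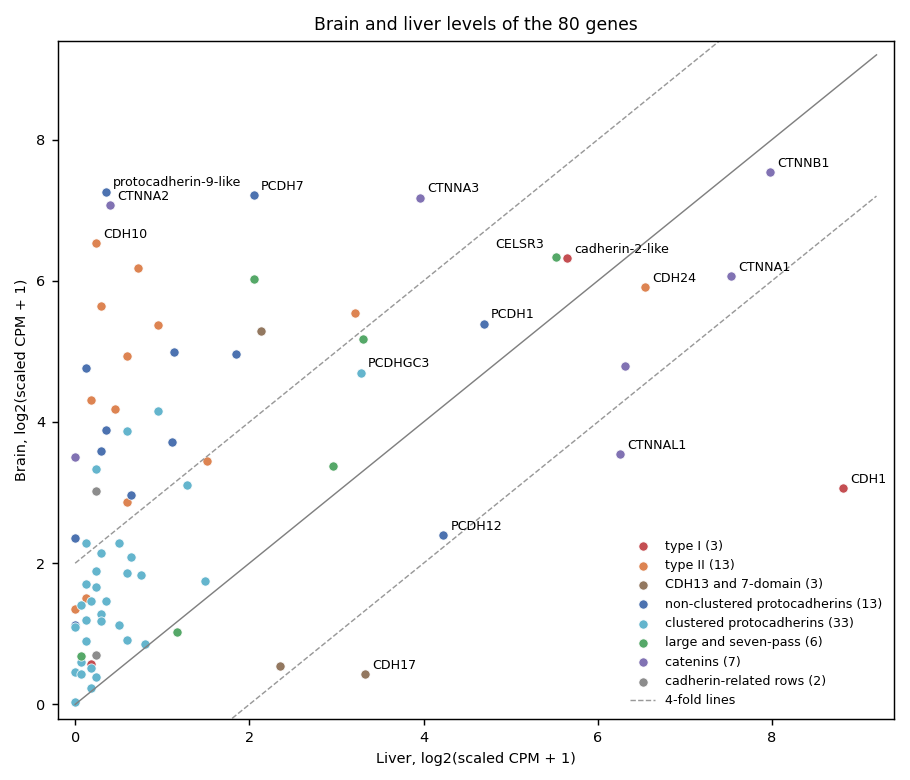
Level of each of the 80 genes in brain (vertical axis) and in liver (horizontal axis), both as log2 of scaled CPM plus 1, coloured by class. Points above the upper dashed line passed 4-fold toward brain and those under the lower one toward liver, where CDH1, CDH17 and CTNNAL1 lie.

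Among type I cadherins, 1 gene was far higher in liver and another moderately higher in brain. CDH1, which encodes E-cadherin of epithelial junctions, had 257 counts in brain and 9707 in liver, equal to 7.35 and 449 CPM. Liver thus exceeded brain 61.1-fold (95% interval 54.0 to 69.5), with a log2 ratio of -5.75, the lowest of the 80 genes. Both CDH1 rows, which lie on unplaced scaffolds and share a transcript accession, pointed this way, with 252 counts in brain and 8979 in liver for one, and 5 and 728 for the other. The cadherin-2-like row had 2763 counts in brain and 1063 in liver, equal to 79.0 and 49.2 CPM. Cadherin 2 is N-cadherin, which joins neurons at synapses and also occurs between hepatocytes. This row was 1.61-fold higher in brain (1.496 to 1.73), short of the 4-fold rule. A second row, which the RefSeq gene table names CDH2 and which has no product in the deposited table, was not part of the set and was looked up after the values were seen. It had 2048 counts in brain and 864 in liver, a 1.46-fold difference (1.35 to 1.59), so both rows gave a like ratio. CDH15, the M-cadherin of muscle, had 17 counts in brain and 3 in liver and did not reach 1 CPM.

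The balance within type I therefore differed between the tissues. CDH1 took 8.46% of type I counts in brain (Wilson 95% interval 7.52 to 9.51) and 90.1% in liver (89.5 to 90.7). For every 100 counts of the cadherin-2-like row there were 9.301 counts of CDH1 in brain and 913 in liver. With the second CDH2 row added, a choice made after the data were seen, there were 5.34 counts of CDH1 in brain and 504 in liver per 100. CDH1 was then 5.05% of type I counts in brain and 83.4% in liver. Markers of the bile duct epithelium, another cell type with E-cadherin, were called in liver for 2 of 5, EPCAM (-2.67) and CFTR (-2.99), with KRT19 at 0.24, KRT7 at -1.17 and SOX9 at 1.88. Their sum was 29.2 CPM in brain and 41.4 CPM in liver. Among them KRT7 had 0 counts in brain. Their part in the CDH1 difference was not tested. In tissue RNA, fewer cells of a type and less RNA per cell cannot be told apart.

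The type II cadherins of the set lay on the brain side, with 1 exception. CDH5, another gene of this class, has no row in the set. Of 13 rows, 9 were called in brain and 0 in liver, against 14.6% and 11.3% of all genes tested. The median log2 ratio was 3.73. CDH10, known from the developing brain, had 3199 counts in brain and 4 in liver, equal to 91.5 and 0.185 CPM, a 494-fold difference (193 to 1815). CDH9, known in mouse for a synapse between hippocampal neurons, had 1709 counts in brain and 5 in liver and was 211-fold higher in brain (90.3 to 651). CDH12, once named N-cadherin 2, had 2503 counts in brain and 14 in liver and was 110-fold higher (65.7 to 202). All 3 were close to absent from the liver library.

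The next type II genes had the same direction with lower brain counts. CDH20 had 1414 counts in brain and 20 in liver, a 43.7-fold difference (28.2 to 71.7). CDH6, which marks neural crest and kidney precursors, had 1035 and 11 (58.1-fold, 32.4 to 117). The row that RefSeq names CDH18 had 662 counts in brain and 3 in liver, and its 136-fold difference has a wide interval (46.5 to 663). A second cadherin-18-like row on an unplaced scaffold had 54 counts in brain and 0 in liver, at least 11.12-fold higher in brain. CDH22 was at 17.2 CPM in brain and 0.370 CPM in liver. CDH8, of sensory and cortical neurons, was at 6.29 CPM in brain and 0.509 CPM in liver. Both were called in brain, at log2 ratios of 3.73 and 2.27.

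CDH11, the OB-cadherin of bone and other mesenchyme, kept a measurable liver level, with 1595 counts in brain and 178 in liver. It was 5.54-fold higher in brain (4.74 to 6.50). Of 5 markers of stellate cells and fibroblasts, cell types known to express CDH11, 1 was called in liver, COL3A1 (-2.36), and 0 in brain, with LUM at 1.91, PDGFRA at 0.80, COL1A1 at 0.02 and DCN at 0.00. Their sums were 105 CPM in brain and 206 CPM in liver, of which COL3A1 held 27.5 CPM in brain and 145 CPM in liver. Their part in the CDH11 difference was not tested. CDH7 was at 9.96 CPM in brain and 1.85 CPM in liver, with a log2 ratio of 1.94, just short of 2, and at 2.79 with plain library size. CDH19, known in rat from precursors of Schwann cells, had 64 counts in brain and 2 in liver and was not called. CDH24 stood apart from its class. It had 2064 counts in brain and 1984 in liver, equal to 59.0 and 91.9 CPM. This gave a log2 ratio of -0.63, which turned to 0.47 with plain library size.

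Of the 13 type II rows, 5 lie on chromosome 16, taking the chromosome from the RefSeq names of the genes on each sequence. They are CDH18, CDH12, CDH10, CDH9 and CDH6, and all 5 were called in brain, with log2 ratios between 4.13 and 6.29 and between 3 and 14 counts in liver. Together they had 9108 counts in brain and 37 in liver, a 152-fold difference (110 to 216). CTNND2, the neural delta-catenin, is the other member there and was also called in brain. Of the 283 genes tested on that chromosome, 46 were called in brain, a share of 16.3%, with a median log2 ratio of -0.19. These 5 genes were grouped after their values were seen.

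The remaining numbered cadherins lack the classical tail or differ in repeat number. CDH13, which is tied to the membrane by a lipid anchor and binds adiponectin, had 1327 counts in brain and 73 in liver over 2 rows. It was 11.2-fold higher in brain (8.87 to 14.4), and the rows gave log2 ratios of 2.88 and 2.90. Both rows of the 7-domain group were higher in liver. CDH17, the LI-cadherin of the intestinal epithelium, had 12 counts in brain and 195 in liver, equal to 0.343 and 9.03 CPM, a 26.3-fold excess in liver (14.7 to 51.8). CDH16, the kidney cadherin, had 16 counts in brain and 89 in liver, a 9.0-fold excess in liver (5.25 to 16.4). Its log2 ratio of -1.81 did not meet the 4-fold rule, which works on levels with 1 CPM added.

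**Figure D2:**
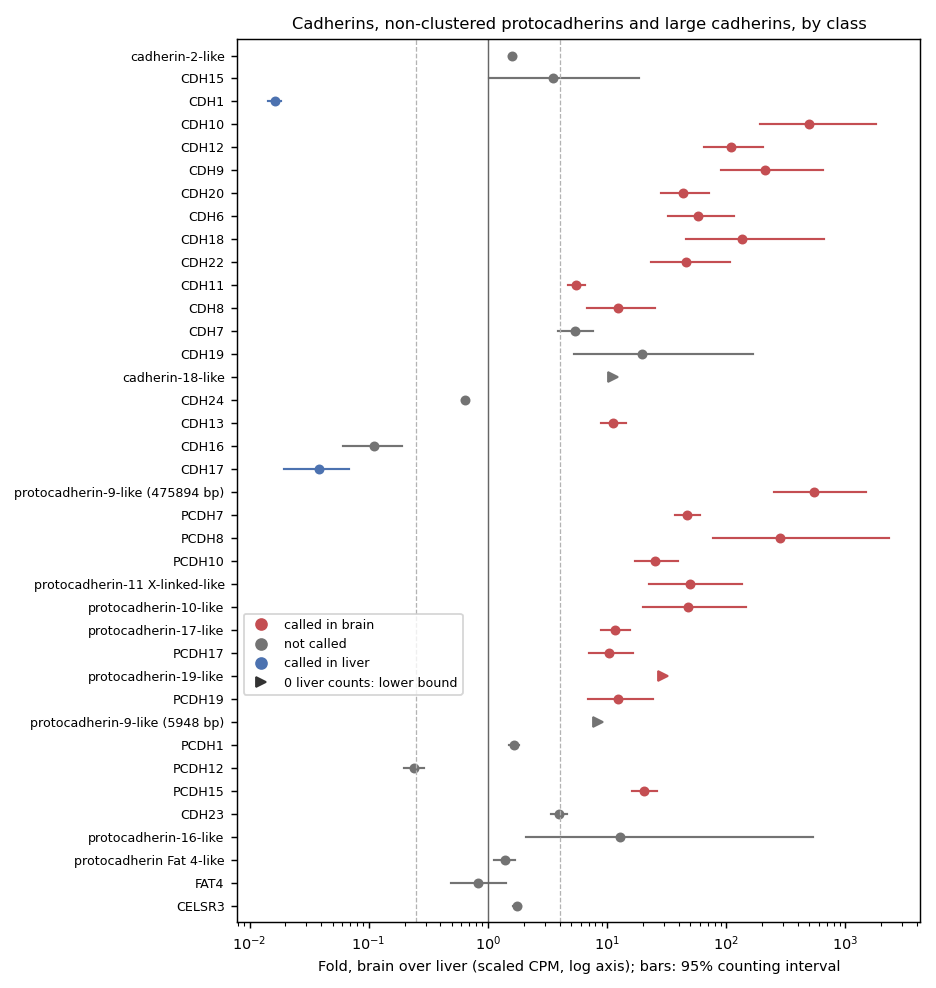
Fold of brain over liver (horizontal log axis, scaled CPM) for each cadherin, non-clustered protocadherin, large cadherin and CELSR3, ordered by class and log2 ratio. Dots are the fold, bars the 95% counting interval, arrowheads lower bounds for genes with 0 liver counts, and dashed lines mark 4-fold. Type II cadherins and non-clustered protocadherins lie mostly to the right, and CDH1, CDH16, CDH17 and PCDH12 to the left.

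Non-clustered protocadherins took 35.5% of the cadherin counts of brain (Wilson 95% interval 35.04 to 35.9) and 6.87% of those of liver (6.49 to 7.27). The liver share is lowered by CDH1, which held 59.3% of the liver counts. Of 13 rows, 10 were called in brain and 0 in liver, against 14.6% and 11.3% of all genes tested. Their median log2 ratio was 3.12. The longer of 2 protocadherin-9-like rows, of 475894 bp, had 5324 counts in brain and 6 in liver, equal to 152 and 0.278 CPM. Its 548-fold difference (252 to 1495) came with a log2 ratio of 6.91, the highest of the 80 genes. The shorter row of that product, of 5948 bp, had 41 counts in brain and 0 in liver, at least 8.44-fold higher in brain. PCDH7 had 5153 counts in brain and 68 in liver, a 46.8-fold difference (36.9 to 60.4). PCDH8, known in rat as arcadlin, a synaptic protein induced by neuronal activity, had 917 counts in brain and 2 in liver (283-fold, 78.2 to 2343).

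The other delta-protocadherins, a subgroup known from axon outgrowth and synapses, lay on the same side. PCDH10 had 1074 counts in brain and 26 in liver, a 25.5-fold difference (17.3 to 39.3), and a separate protocadherin-10-like row had 385 and 5. PCDH17 had 424 counts in brain and 25 in liver, and the protocadherin-17-like row had 1059 and 56, with folds of 10.5 and 11.7 that lie within each other's intervals. On the X chromosome, PCDH19, a gene mutated in a human epilepsy of girls, had 239 counts in brain and 12 in liver (12.3-fold, 6.92 to 24.2). Also on the X, the protocadherin-11 X-linked-like row had 483 and 6 (49.7-fold, 22.7 to 136). A short protocadherin-19-like row had 144 counts in brain and 0 in liver, at least 29.7-fold higher in brain. Rows of the same product thus pointed the same way in each of these cases.

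PCDH1 and PCDH12 differed from the rest of the class. PCDH1, known from airway epithelium as well as brain, had 1435 counts in brain and 536 in liver, and was 1.65-fold higher in brain (1.497 to 1.83). PCDH12, a protocadherin of vascular endothelium, had 149 counts in brain and 383 in liver, equal to 4.26 and 17.7 CPM. It was the one protocadherin of the class with a ratio below 0, at -1.83, which is a 4.16-fold excess in liver (3.43 to 5.06). With plain library size its log2 ratio was -0.85. Of 6 endothelial markers, PECAM1 (-2.72), KDR (-3.03) and TEK (-2.98) were called in liver and ESAM (8.52) and CLDN5 (2.74) in brain, with VWF at -0.16. The summed level of these markers was 2996 CPM in brain, of which the ESAM row held 2915, and 380 CPM in liver. None was at 0 in either library, and their part in the PCDH12 difference was not tested.

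Delta-protocadherins such as PCDH10, PCDH17 and PCDH19 bind the WAVE complex, which drives actin branching. In a list of 17 protocadherin and junction partners, 16 had a row and 15 reached 1 CPM. Of these, 5 were called in brain and 0 in liver, against 14.6% and 11.3% of all genes tested. The 5 were PTK2B (4.12) and FYN (3.31), both tyrosine kinases, and, chosen after their values were seen, the WAVE complex genes CYFIP2 (4.13), WASF1 (4.08) and ABI2 (3.47). Other WAVE complex genes had lower ratios, with NCKAP1 at 0.66 and, also chosen after their values were seen, ABI1 at 1.03 and CYFIP1 at -1.4. ACTN4, an actin crosslinker of junctions, had a log2 ratio of -0.54 that became 0.56 with plain library size.

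Clustered protocadherins were numerous and thinly covered. In all 33 rows the log2 ratio was above 0 with TMM and under the 3 other scalings. Those could hardly turn it, since they move ratios toward brain or barely move them. Some rows with few counts had intervals that hold 1, such as PCDHB16 with 11 counts in brain and 4 in liver (0.503 to 7.32). Of the 33 rows, 10 did not reach 1 CPM. Of the other 23, 4 were called in brain and 0 in liver, against 14.6% and 11.3% of all genes tested. The 33 rows together had 4108 counts in brain and 429 in liver, equal to 118 and 19.9 CPM, a 5.92-fold difference (5.36 to 6.55). Without the added 1 CPM, 19 of the 23 passed 4-fold toward brain, against 21.3% of all genes tested. All 33 rows lie on chromosome 2. In clustered arrays each gene has its own first exon and the alpha and gamma genes splice to shared last exons, so reads of the shared exons cannot be assigned to 1 gene, and near-identical first exons may also share reads.

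The fold of summed counts differed between the 3 groups of the array. The 5 alpha rows had 715 counts in brain and 16 in liver (27.6-fold, 16.9 to 48.6), the 11 beta rows 716 and 47 (9.41-fold, 7.003 to 12.9), and the 17 gamma rows 2677 and 366 (4.52-fold, 4.05 to 5.05). None of these intervals overlap, which is a statement on counting error alone. PCDHGC3 alone held 188 of the 366 gamma counts in liver, and the gamma fold was not computed without it. Whether the beta and gamma groups differ apart from that row was therefore not shown. Of the alpha counts, PCDHAC2 held 475 of the 715 in brain and 11 of the 16 in liver, a 26.7-fold difference (14.8 to 53.8). The alpha sum thus rests mostly on this row. Its deposited length was 63158 bp, against 1194 to 6230 bp for the other alpha rows. The alpha-1-like row had 136 and 2 counts and was called in brain, while PCDHA5, with 79 and 2, was not. The alpha-3-like and alpha-10-like rows had 13 and 12 counts in brain, and 0 and 1 in liver. Among beta rows, which have single exons, the beta-15-like row had 319 counts in brain and 4 in liver (49.3-fold, 19.1 to 182). At the other end, the beta-10-like row had 28 counts in brain and 16 in liver, a fold of 1.08 whose interval (0.565 to 2.14) holds 1. The other 9 beta rows had at most 94 counts in brain and 6 in liver.

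Gamma rows included those with the most liver counts of the array. PCDHGC3, a C-type gene known to be widely expressed, had 872 counts in brain and 188 in liver, equal to 24.9 and 8.70 CPM. It was 2.87-fold higher in brain (2.45 to 3.37), at a log2 ratio of 1.42 that became 2.44, past 4-fold, with plain library size. It took 32.6% of gamma counts in brain (Wilson 95% interval 30.8 to 34.4) and 51.4% in liver (46.3 to 56.4). The gamma-C5-like row, another C-type gene, had 590 counts in brain and 20 in liver, an 18.2-fold difference (11.7 to 30.1), and was the one gamma row called in brain. PCDHGA12 had 266 and 31 counts (5.30-fold, 3.65 to 7.96). The gamma-B5-like row had 82 counts in brain and 39 in liver, and its fold of 1.30 has an interval from 0.877 to 1.95. The other 13 gamma rows had at most 136 counts in brain and 15 in liver.

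**Figure D3:**
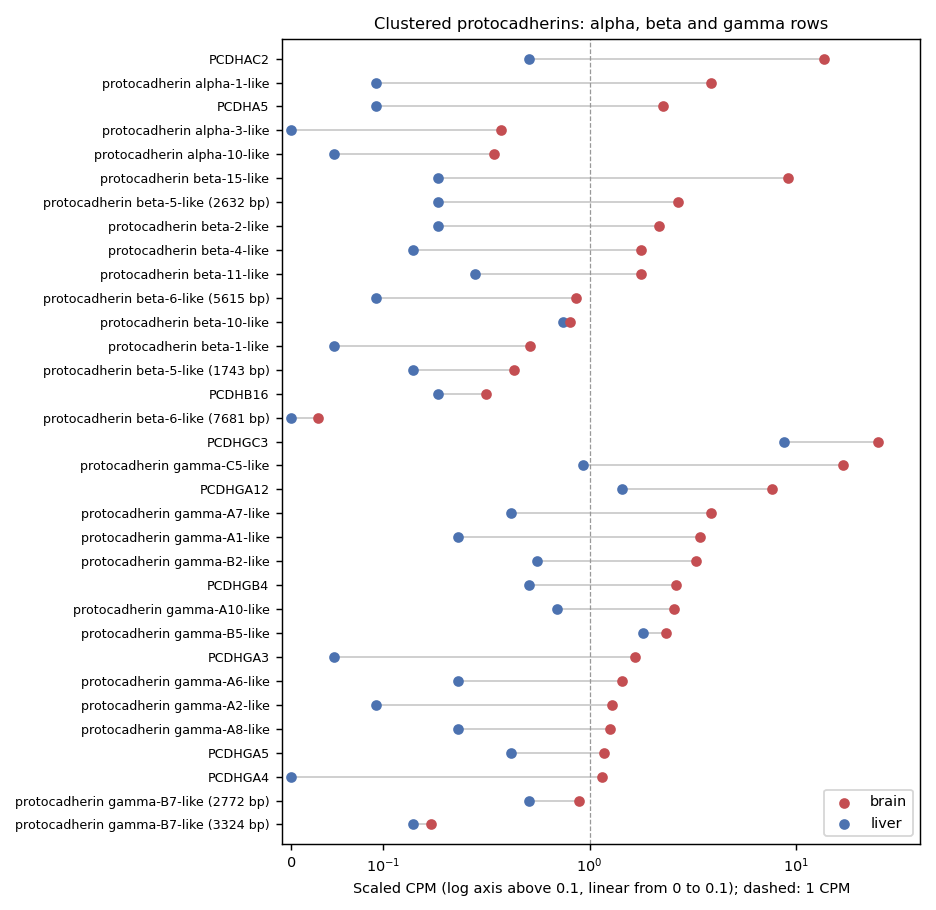
Level in scaled CPM of each clustered protocadherin row in brain (red) and liver (blue), grouped into alpha, beta and gamma rows and ordered by brain level, on an axis that is logarithmic above 0.1 CPM and linear below. The brain point lies to the right of the liver point in all 33 rows, and the dashed line marks 1 CPM.

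Of 5 large cadherins, 4 reached 1 CPM. Of these, 1 was called in brain and 0 in liver, against 14.6% and 11.3% of all genes tested. Summed counts of the 5 were 3866 in brain and 433 in liver, a 5.52-fold difference (4.99 to 6.11). PCDH15 held 2252 of these counts in brain and 68 in liver, so the summed fold does not describe each member. PCDH15 and CDH23 form the tip link of hair cells in the inner ear. PCDH15 had 2252 counts in brain and 68 in liver, a 20.5-fold difference (16.1 to 26.4), and was the one large cadherin called. CDH23 had 1230 counts in brain and 191 in liver, at 3.98-fold (3.41 to 4.66) and a log2 ratio of 1.88, and 2.91 with plain library size. FAT4, which with DCHS1 orients cells within a sheet, is the namesake of 2 rows of product Fat 4-like. The longer one had 327 counts in brain and 146 in liver, with a log2 ratio of 0.42. The shorter one, named FAT4 by RefSeq, had 36 counts in brain and 27 in liver, with a log2 ratio of -0.15 that became 0.44 with plain library size. The protocadherin-16-like row had 21 counts in brain and 1 in liver and did not reach 1 CPM. CELSR3, needed for axon tracts in mouse, had 2780 counts in brain and 973 in liver, equal to 79.5 and 45.1 CPM, and was 1.77-fold higher in brain (1.64 to 1.90).

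Partners of CELSR and FAT proteins in planar polarity were read from a list of 12 genes. Of these, 11 reached 1 CPM, and 3 were called in brain and 0 in liver, against 14.6% and 11.3% of all genes tested. The 3 were FJX1 (2.98) and, chosen after their values were seen, PRICKLE2 (3.52) and FZD3 (2.13). DVL1 was at 0.35, PRICKLE1 at 1.88 and DVL3 at -0.71, which became 0.36 with plain library size. Other large cadherins have products without that word and were not in the set. Of these, looked up after the values were seen, FAT3 had 3866 counts in brain and 20 in liver (log2 ratio 5.86), FAT2 had 123 and 8 (1.72), DCHS1 had 346 and 138 (0.56) and FAT1 had 319 and 569 (-1.43). CDH4, the retinal type I cadherin, is a RefSeq name for another row without product, with 257 counts in brain and 14 in liver (2.34).

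**Figure D4:**
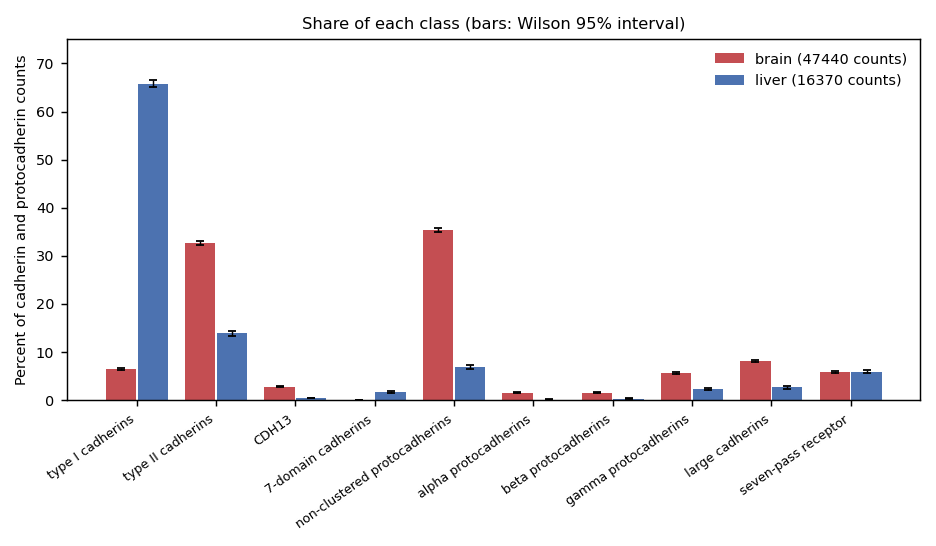
Share of the 47440 brain counts (red) and 16370 liver counts (blue) of cadherins and protocadherins taken by each class, in percent, with Wilson 95% intervals that cover counting error only. Type I cadherins took 6.402% in brain and 65.8% in liver, while type II cadherins took 32.6% and 13.9%. CDH1 alone held 59.3% of the liver counts, which lowers the liver share of every class other than type I. Counts are not corrected for length, so bars compare the tissues and do not rank the classes.

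Within the cadherin counts of each tissue, CDH1 alone took 0.542% in brain and 59.3% in liver. This large share of CDH1 lowers the liver share of every class other than type I, and shares without CDH1 were not computed. Type II cadherins took 32.6% in brain (Wilson 95% interval 32.2 to 33.0) and 13.9% in liver (13.4 to 14.5). The gap between these 2 shares is thus not a measure of type II levels. Summed type II levels were 442 CPM in brain and 106 CPM in liver, a 4.19-fold difference (4.01 to 4.38). CDH24 made up 1984 of the 2280 type II counts of liver. The seven-pass receptor CELSR3 took a like share in both, 5.86% in brain (5.65 to 6.07) and 5.94% in liver (5.59 to 6.32). Cadherins and protocadherins together were 0.199% of all brain counts and 0.0516% of all liver counts.

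Catenins split by gene rather than as a family. Their summed counts were 20135 in brain and 13060 in liver, a log2 fold of -0.07 that became 1.04 with plain library size. Of 7, 3 were called in brain and 1 in liver, against 14.6% and 11.3% of all genes tested. CTNNA2, the neural alpha-catenin, had 4667 counts in brain and 7 in liver, equal to 134 and 0.324 CPM, a 412-fold difference (200 to 1025). CTNND2, the neural delta-catenin, had 362 counts in brain and 0 in liver, at least 74.6-fold higher in brain. CTNNA3, the alpha-catenin known from heart and testis, had 5016 counts in brain and 315 in liver, a 9.84-fold difference (8.78 to 11.1).

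Among the catenins of epithelial junctions, CTNNA1 and CTNND1 had their higher levels in liver without reaching 4-fold. CTNNA1 had 2307 counts in brain and 3978 in liver, equal to 66.0 and 184 CPM, a 2.79-fold excess in liver (2.65 to 2.94). CTNND1, which encodes p120-catenin, had 932 and 1698 counts, a 2.95-fold excess in liver (2.72 to 3.20). With plain library size their log2 ratios were -0.37 and -0.44. CTNNB1, the beta-catenin shared by junctions and Wnt signalling, had 6479 counts in brain and 5436 in liver, with a log2 ratio of -0.44 that became 0.66 with plain library size. CTNNAL1, an alpha-catenin relative, had 372 counts in brain and 1626 in liver a 7.07-fold excess in liver (6.32 to 7.94). At -2.71 its log2 ratio passed the rule, but not with plain library size, where it was -1.65. JUP, the plakoglobin that replaces beta-catenin in desmosomes, was outside the set, at -1.30.

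**Figure D5:**
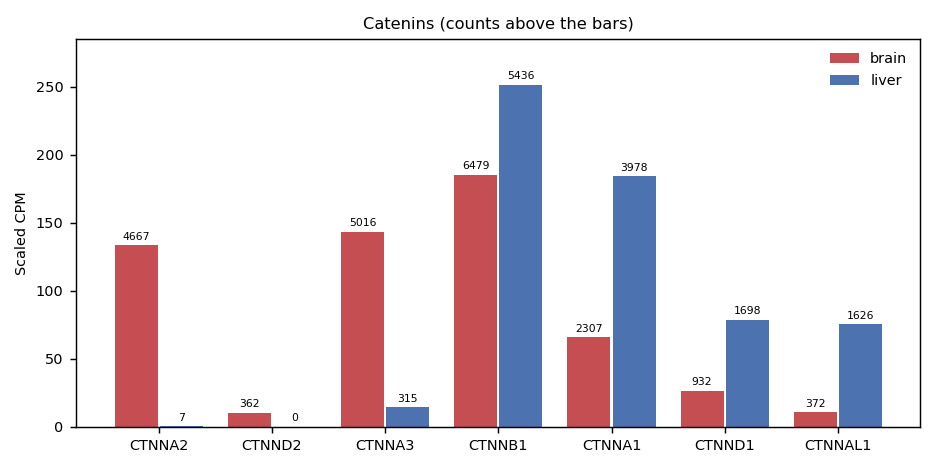
Scaled CPM of the 7 catenins and relatives in brain (red) and liver (blue), ordered by log2 ratio, with the deposited counts above the bars. CTNNA2, CTNND2 and CTNNA3 are higher in brain, and CTNNA1, CTNND1 and CTNNAL1 in liver.

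The use of alpha-catenins differed accordingly. CTNNA1 took 19.2% of alpha-catenin counts in brain (Wilson 95% interval 18.5 to 19.96) and 92.5% in liver (91.7 to 93.3). CTNNA2 took 38.9% in brain and 0.163% in liver, and CTNNA3 41.8% in brain and 7.33% in liver. These are shares of counts uncorrected for length. In the RefSeq table, LRRTM2 lies inside CTNNA1, LRRTM1 inside CTNNA2 and LRRTM3 inside CTNNA3, all synaptic adhesion genes. LRRTM1 has a row of its own, with 1137 counts in brain and 0 in liver, and no row used here carries the name LRRTM2 or LRRTM3. Whether reads of these inner genes entered the catenin rows was not tested. CDH23 likewise spans VSIR, which has no row here.

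Length as deposited, which spans introns, went with the brain calls. Of the 16 members of 100000 bp or more, 13 were called in brain and 0 in liver. Among all genes tested of that length, 31.3% were called in brain and 5.93% in liver. Of the 64 shorter members, 51 reached 1 CPM. Of these, 16 were called in brain and 3 in liver, against 12.4% and 12% of all shorter genes tested. The median log2 ratio was 4.05 for the long members and 1.09 for the shorter ones, against 0.84 and 0.02 for all genes of those lengths in the table.

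Relatives of the cadherins outside the set also differed by tissue. All 3 calsyntenins, cadherin-repeat proteins of synapses, were called in brain, CLSTN1 (4.44), CLSTN2 (3.86) and CLSTN3 (5.92). Of 13 desmosome genes, 7 reached 1 CPM. Of these, 3 were called in liver and 2 in brain, against 11.3% and 14.6% of all genes tested. DSC2, the desmocollin of simple epithelia, had 9 counts in brain and 1869 in liver (-6.12), and its partner DSG2 had 70 and 424 (-2.78). The plaque gene DSP was at -3.97, while the plakophilin relatives PKP4 (2.35) and PKP3 (2.81) were higher in brain. Of the 13, 6 did not reach 1 CPM in either library, among them DSG1 and DSG3, the desmogleins of skin, which were chosen after their values were seen.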

How the data were processed

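RNA of brain and liver was sequenced, with 1 library per tissue, and the deposited table gives counts of reads per gene, taken as raw since they are whole and their totals differ. The submitters' processing notes name TopHat and the pig build Sscrofa10.2 (susScr3). The sources used here give no counting program, strand setting or TopHat version, so reads of overlapping, antisense or near-identical genes may be shared. The deposited length is another column, in bp, and spans introns. The table names a sequence but no start or end, so no coordinates are given.

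Rows were summed per name. Of the 80 members, 45 carry a gene number, of which 11 took a symbol from a RefSeq gene table of Sscrofa11.1, used for names, chromosome and gene order alone. Scaling used TMM in edgeR 4.0.16 (R 4.3.3), with a factor of 1.47 in brain and 0.681 in liver, and 1 CPM is 34.95 counts in brain and 21.6 in liver. No test was run. Intervals are conditional binomial or Wilson intervals at 95% (scipy 1.17.1), and a floor of 3 counts equals 0.0858 CPM in brain and 0.139 CPM in liver. The self-test ran on simulated counts. Alternatives were 3 other scalings (including median of ratios from DESeq2 1.42.0), other pseudocounts, filters and folds, the highest row per name, carry-over subtracted, and other ways of finding members. The use of no pseudocount, summing by RefSeq symbol, adding the second CDH2 row and leaving out the cadherin-related rows were added after the data were seen.

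Members, classes and the 20 companion lists were chosen with earlier results of these data known. All members may be named. From a companion list, the rule names up to 4 genes with the highest mean level and any at 4-fold against the list's median, and any other gene is marked in the text as picked later. A ranking of members by level per coding length was foreseen and not made, since no coding lengths were used here.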

Additional observations from a re-analysis of the deposited data

How the results depend on the processing

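The median-of-ratios scaling, the absence of a filter and subtraction of carry-over kept every member on its side of the 4-fold rule. Members called, 29 in brain and 3 in liver, came to 48 and 5 with a pseudocount of 0.1 CPM or with none, and to 16 in brain with 5 CPM. They came to 49 and 7 at 2-fold, and 1 in liver at 8-fold, CDH1. Members found by gene name alone gave 12 and 1, since fewer rows enter. Genes of the whole table, 2300 in brain and 1776 in liver, came to 3861 and 960 with plain library size, 1238 and 1123 with 5 CPM, 4332 and 3833 at 2-fold, and 1342 and 895 at 8-fold. Companion list genes in liver, 19, came to 10 with plain library size, 32 at 2-fold and 10 at 8-fold.

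Of the 29 brain calls, 29 were shared with plain library size, which added 9, and 2 of the 3 liver calls were shared, CTNNAL1 being lost. Plain library size moves every ratio toward brain, so no brain call could be lost by it. Log2 folds of summed counts with plain library size were -2.93 for 7-domain cadherins, 4.60 for CDH13, 5.90, 4.34 and 3.29 for alpha, beta and gamma protocadherins, 1.04 for catenins, 3.57 for large cadherins, 4.32 for non-clustered protocadherins, 1.93 for CELSR3, -1.41 for type I and 3.18 for type II. Without the 50 most abundant genes they were 3.95 for CDH13, 3.70 and 2.64 for beta and gamma protocadherins, 0.39 for catenins, 2.93 for large cadherins, 3.67 for non-clustered protocadherins, 1.28 for CELSR3, -2.06 for type I and 2.53 for type II. The highest row per name gave -2.42 for type I, since 1 CDH1 row is dropped. Each scaling shifts folds without the added 1 CPM alike for all genes. Log2 ratios with 1 CPM added shift by unlike amounts. With plain library size CDH24 went from -0.63 to 0.47 and CDH10 from 6.29 to 6.91. Of 80 member log2 ratios, 78 moved beyond their counting interval with plain library size and 0 changed sign among called members.

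No paired analysis was possible because there is 1 library per tissue. At this depth, 0 liver counts allow a level of up to 0.139 CPM.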

Other observations

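Other genes that act on cadherins or their junctions were read from further lists. Of the nectins and afadin, a second adhesion system of adherens junctions, 3 had a row and 0 were called in either tissue. MLLT4, the gene of afadin, was at 76.5 CPM in brain and 171 CPM in liver (log2 ratio -1.15). NECTIN3 was at -0.57 and PVRL1 at -0.35, and plain library size turned both positive, to 0.53 and 0.59. Of 13 cleavage and turnover genes, 3 were called in liver and 0 in brain, against 11.3% and 14.6% of all genes tested. The 3 were the presenilin gene PSEN2 (-2.47) and, chosen after their values were seen, PTPRF (-2.04) and RNF43 (-3.04). PTPRK, a phosphatase of adherens junctions, was at 0.39, the protease MMP14 at -1.82 and the gamma-secretase subunit NCSTN at -1.19. Of 6 transcriptional repressors of CDH1 with a row, 0 were called. ZEB1 was at 42.5 CPM in brain and 19.96 CPM in liver (1.06). ZEB2 was at 22.7 CPM in brain and 7.22 CPM in liver (1.53). TCF3 was at -0.38 and TWIST1 at -0.25, and plain library size turned them to 0.54 and 0.39.

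Between the first and the last clustered protocadherin row, 11 further rows carry a gene number and no product, so they were not in the set. They had 491 counts in brain and 53 in liver, a 5.72-fold difference (95% interval 4.31 to 7.75), and 11 of the 11 were higher in brain. The set's own clustered rows together gave 5.92-fold. The 2 cadherin-related rows had 249 counts in brain and 4 in liver for the one RefSeq names CDHR1, known from photoreceptors, and 22 and 4 for the one it names CDHR3.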
